A study of Homo sapiens with 3 samples.

Results

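The genes of RNA polymerase II (Pol II), of its general transcription factors and of Mediator were followed in C33A cells, a human cervical carcinoma cell line. Members were the genes named POLR2A to POLR2M, TAF, GTF2 or MED with a number in the platform annotation of the array, which gave 77 genes of 18395 measured. They were read by 81 probe sets of 33297, and a further 23 probe sets that name a member together with another gene were left out. Total RNA came from 3 independent cultures, all untreated and growing exponentially, and each was hybridized to 1 Affymetrix Human Gene 1.0 ST array. All samples belong to 1 group, so no treatment, genotype or time point is compared, and the cells are 1 line in culture. Each level is a log2 intensity after Robust Multichip Average (RMA) normalization, in which the array background is corrected, the arrays are given 1 common distribution and the probes of a probe set are summarized.

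Pol II transcribes the protein-coding genes. At a promoter TFIID, which is TBP with its TBP-associated factors (TAFs), recognizes the DNA around the start site, TFIIA and TFIIB hold it in place and bring in the polymerase with TFIIF, and TFIIE and TFIIH complete the complex and open the DNA. Mediator carries signals from activators at enhancers to the polymerase, through a head, a middle and a tail module and a detachable kinase module. In the study from which these cells come, the arrays served to set the promoter binding of the chromatin remodeller CHD8 beside the transcript level of each gene.

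The arrays were alike, with Pearson's r of 0.993, 0.994 and 0.994 for the 3 pairs across all probe sets, which are not independent of each other. Between cultures, the members varied by an SD of 0.05 log2 and all genes by 0.08 log2 (medians over genes), and precision is limited by the 3 arrays. The SD fell with level, from a median over all genes of 0.14 log2 in decile 1 of mean level to 0.06, 0.05 and 0.04 log2 in deciles 8, 9 and 10. The median percentile of the members was 79.4, so their SD was near that of genes of like level. No detection call comes with the files, so a background bound was set on each array at the 95th percentile of 477 genes that few tissues express (olfactory and taste receptors, keratin-associated proteins and beta-defensins), at 6.39, 6.32 and 6.44 log2. Of 5 epithelial markers 1 was above that bound, KRT18 at 7.75 log2, whereas KRT8 (5.75), KRT19 (5.92), EPCAM (4.52) and CDH1 (4.95) were below it. Of the markers of other cell types, PTPRC (8.82), COL1A1 (7.24) and COL3A1 (11.36) were above the bound, and CD3E, CD14, DCN, LUM and all 3 endothelial markers were below it. The part of these marker levels in the results was not tested. Signal also depends on the sequence of the probes, so an order of levels between genes is approximate.

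The promoters of the members are shown first, because the study measured CHD8 at promoters. RefSeq promoter windows (GRCh38.p14, 250 bases before to 50 bases after an annotated start) were found for 60 of the 77 genes, in 73 windows. Motifs were not compared between members on and off the study's list of CHD8 target genes, and members off it hold such motifs too. The 6 windows below belong to members on that list. They were chosen after the matches were seen, to show 4 kinds of short promoter motif, and the capitals mark the motif: the ETS core CCGGAAG in MED31, TAF1D and MED7, the E2F string TTTCCCGC in TAF11, the NRF1 palindrome (GCGCA joined to its reverse complement) in POLR2H, and the TATA box TATAAA in GTF2B.
MED31 (chr17:6651556-6651855, minus strand): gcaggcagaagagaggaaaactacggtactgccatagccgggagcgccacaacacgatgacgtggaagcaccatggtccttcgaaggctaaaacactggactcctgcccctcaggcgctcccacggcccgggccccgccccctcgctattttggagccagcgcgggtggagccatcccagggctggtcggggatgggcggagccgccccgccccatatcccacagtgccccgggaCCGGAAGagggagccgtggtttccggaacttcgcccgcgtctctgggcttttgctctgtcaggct
TAF1D (chr11:93741446-93741745, minus strand): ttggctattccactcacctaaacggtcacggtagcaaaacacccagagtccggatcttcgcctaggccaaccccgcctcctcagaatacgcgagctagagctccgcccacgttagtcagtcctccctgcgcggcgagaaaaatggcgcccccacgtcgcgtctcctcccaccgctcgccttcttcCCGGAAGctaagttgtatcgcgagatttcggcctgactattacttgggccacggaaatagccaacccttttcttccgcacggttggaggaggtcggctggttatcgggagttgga
MED7 (chr5:157142816-157143115, minus strand): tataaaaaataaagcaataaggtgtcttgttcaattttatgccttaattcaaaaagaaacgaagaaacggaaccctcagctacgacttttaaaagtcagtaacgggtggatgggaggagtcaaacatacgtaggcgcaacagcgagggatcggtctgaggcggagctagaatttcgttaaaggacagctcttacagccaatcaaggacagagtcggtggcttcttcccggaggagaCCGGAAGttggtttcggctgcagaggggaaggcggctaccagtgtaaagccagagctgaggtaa
TAF11 (chr6:34887993-34888292, minus strand): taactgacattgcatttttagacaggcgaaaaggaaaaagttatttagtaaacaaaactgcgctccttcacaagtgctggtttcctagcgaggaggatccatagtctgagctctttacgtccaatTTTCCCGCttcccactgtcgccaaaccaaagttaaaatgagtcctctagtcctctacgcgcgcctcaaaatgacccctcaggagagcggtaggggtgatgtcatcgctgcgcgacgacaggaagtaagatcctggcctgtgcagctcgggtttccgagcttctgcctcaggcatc
POLR2H (chr3:184363111-184363410, plus strand): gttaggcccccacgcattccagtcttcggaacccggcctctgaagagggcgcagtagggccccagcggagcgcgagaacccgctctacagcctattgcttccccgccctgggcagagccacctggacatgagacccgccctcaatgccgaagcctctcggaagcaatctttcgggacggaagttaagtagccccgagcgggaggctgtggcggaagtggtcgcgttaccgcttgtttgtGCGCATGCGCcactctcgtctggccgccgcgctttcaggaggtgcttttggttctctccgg
GTF2B (chr1:88891518-88891817, minus strand): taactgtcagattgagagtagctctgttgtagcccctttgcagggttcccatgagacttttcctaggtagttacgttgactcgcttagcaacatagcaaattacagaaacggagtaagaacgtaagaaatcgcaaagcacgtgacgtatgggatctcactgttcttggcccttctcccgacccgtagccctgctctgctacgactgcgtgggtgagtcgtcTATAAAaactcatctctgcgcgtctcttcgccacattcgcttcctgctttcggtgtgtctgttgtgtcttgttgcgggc

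The first base of the motif lies at position -15 from the annotated start of the printed window in MED31, -65 in TAF1D, -14 in MED7, -125 in TAF11, -11 in POLR2H and -29 in GTF2B. GTF2B, which encodes TFIIB, thus has TATAAA at the place where TATA boxes are usually found, and it was 1 of 5 members with that string anywhere in the window. MED7, TAF11 and POLR2H each have 2 windows, of which 1 is printed. From the other start the match lies at -104 in MED7 and -96 in TAF11, and the other POLR2H window lacks the NRF1 palindrome. In all, 15 strings were searched on both strands, and a match is a description of the letters, not a bound site.

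The ETS core CCGGAAG is read by the ETS family of transcription factors, among them GABPA, ELK1 and ELF1. It was present in 24 of the 60 member genes with a window (40%), against 26.5% of genes of the high tertile of transcript level and 16.8% of all measured genes with a window. Counted by window, it was in 28 of 73 (38.4%), against 20.3% of the windows of high tertile genes, 12.95% of those of measured genes and 10.3% of all 35116 windows of the same length. A match in 2 windows was counted once, from the start whose window comes first on the chromosome. The GTF2A2 match was thus counted at -228 and a MED7 match at -104, though they lie at -18 and -14 from the other start. The 32 distinct matches lay near the start, with 26 of them starting within 100 bases of it, and 15 were followed by t. None of them overlapped a match of the other 7 motifs that are plotted. Short windows on the strand of the motif show how the letters around it vary between complexes, with the core in capitals.
POLR2C (chr16:57462644-57462670, minus strand): accgccaacaCCGGAAGtcagtcagcg
POLR2D (chr2:127858125-127858151, plus strand): accagcgccgCCGGAAGcagaagcgcg
GTF2A1 (chr14:81221396-81221422, minus strand): gcgccagaggCCGGAAGccacgccacg
GTF2H1 (chr11:18322538-18322564, minus strand): gggcacgtgaCCGGAAGtagcaaggcg
TAF13 (chr1:109076009-109076035, minus strand): ccgcgcgtcaCCGGAAGtgaggcggcg
TAF1A (chr1:222589916-222589942, plus strand): cgcctcgaccCCGGAAGtgacttctgg
TAF1C (chr16:84187046-84187072, plus strand): ccggtttggaCCGGAAGtgcctcctgc
MED11 (chr17:4731419-4731445, minus strand): gacgcttgttCCGGAAGtggctctcgg
MED29 (chr19:39391389-39391415, minus strand): gcgtagaccgCCGGAAGtgcgttacga

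Every TAF gene counted under SL1, the TBP complex of Pol I, held the core (4 of 4, TBP not counted). So did 7 of 18 Mediator core genes, 4 of 10 TFIID genes, 3 of 8 Pol II genes, 3 of 6 genes of TFIIA, TFIIB, TFIIE and TFIIF, and 2 of 4 TFIIH genes. It was also in POLR2M, and in 0 of 3 kinase module genes, 0 of 3 TFIID variants, 0 of 2 SAGA TAFs and 0 of 1 gene of the TFII-I family. The share over all measured genes was 16.8%, and no test was run on counts this small. Members with the core had a median level of 8.80 log2 (24 genes) and members without it 8.79 log2 (36 genes), so their levels were close. Of the other strings, the YY1 string AAGATGGCG was in 6 member genes (10%, against 6.42% of high tertile genes and 3.36% of measured genes), any of 3 E2F strings (TTTCCCGC, TTTGGCGC and TTTCGCGC) in 5 (8.33%, 6.50% and 4.61%), the NRF1 palindrome in 3 (5%, 3.40% and 2.05%) and the CRE TGACGTCA in 3 (5%, 4.57% and 3.10%). Of the general promoter elements, the GC box GGGCGG was in 61.7% of member genes, against 79.8% of high tertile genes and 65.9% of measured genes, and CCAAT in 36.7%, against 43.7% and 42.2%. TATAAA was in 8.33% of member genes, against 7.12% and 11.9%. Counted by window, the GC box was in 57.5% of member windows, 69.8% of high tertile windows and 57.3% of measured windows. CCAAT was in 34.2%, 35.8% and 34.5%, and TATAAA in 6.85%, 5.39% and 9.06%. Member genes had 73 windows for 60 genes, and measured genes 20111 for 14240, so shares by gene also depend on windows per gene. The median GC content was 59.3% in member windows and 65.3% in high tertile windows.

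**Figure D1:**
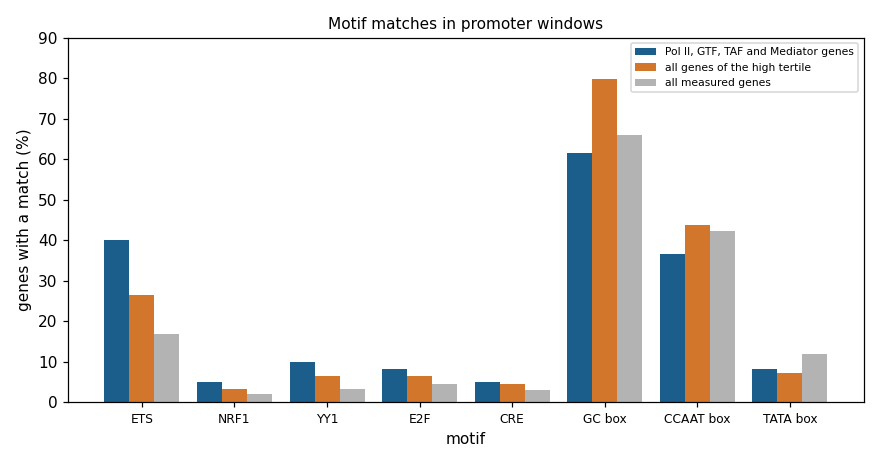
Share of genes, in percent, whose promoter window holds each of 8 motifs, for member genes (blue, 60 genes with a window), genes of the high tertile (orange) and all measured genes (grey). The ETS core was in 40% of member genes, 26.5% of high tertile genes and 16.8% of measured genes, and the GC box in 61.7%, 79.8% and 65.9%.

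Of 5 further strings, the shorter CRE string TGACGT was in 10 member genes (16.7%, against 15.6% of high tertile genes and 11.8% of measured genes). The shorter NRF1 string GCATGCGC was in 3 (5%, 7.70% and 4.87%). TTTGCCGC, an E2F string not counted with the E2F strings above, was in 0 (against 1.27% of high tertile genes and 0.96% of measured genes). The palindrome of TCTCG with its reverse complement (1.49% and 0.72%) and the ZNF143 string (0.83% and 0.44%) were also in 0. Strings this rare cannot set 60 member genes apart from other genes by their absence. An annotated start of another gene on the opposite strand lay at most 1000 bases upstream of 19 of the 60 genes (31.7%), against 32.0% of high tertile genes and 23.0% of measured genes. GTF2H3 thus shares its promoter region with EIF2B1, a translation initiation factor subunit, and MED29 with PAF1, a Pol II elongation factor. Their levels were 9.88 log2 for GTF2H3 and 10.51 for EIF2B1, and 8.69 for MED29 and 10.58 for PAF1. These pairs are examples, and 12 members had a measured neighbour. The levels of those neighbours ran from 5.62 log2 (C22orf23, beside POLR2F at 10.77 log2) to 10.58 log2 (PAF1). A relation between the levels of neighbours was not tested.

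The transcripts of nearly all members were above background. In a limma fit over all genes, 74 of the 77 members were above the background bound, against 54.8% of all genes (two-sided, Benjamini-Hochberg adjusted p under 0.05 over 18395 genes). The other 3, MED30, TAF1L and TAF7L, were below it, against 40.7% of all genes. By mean level 60 members lay in the high tertile (33.34% of all genes), 15 in the medium and 2 in the low, and 16 members lay in decile 10 (10% of all genes). The members had a median level of 8.97 log2, against 6.91 log2 in all genes, and the difference of the medians per array was 2.03, 1.995 and 2.05 log2 (mean 2.03 ± 0.03, SD, n = 3 arrays).

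Highest of the core machinery was the polymerase itself. Its 12 subunits had a median level of 10.21 log2 and were all above the bound and in the high tertile, 7 of them in decile 10. POLR2B, which builds the active site together with the largest subunit, had 11.85, 11.79 and 11.82 log2 on the 3 arrays, the highest level of any member. POLR2A, the largest subunit with the C-terminal domain that is phosphorylated during transcription, had 9.60, 9.66 and 9.64 log2. The arrays thus gave a lower signal for the large catalytic subunit than for its partner, with no overlap.

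POLR2E, POLR2F, POLR2H, POLR2K and POLR2L are the 5 subunits that Pol II shares with Pol I and Pol III, and all of them were in decile 10. POLR2E had 11.65, 11.61 and 11.60 log2 and was the highest of them. POLR2K, a small zinc-binding subunit, had 10.45, 10.31 and 10.26 log2 and was the lowest. Their median of 10.92 log2 stood against 9.62 log2 for the 7 subunits of Pol II alone, a difference per array of 1.29, 1.36 and 1.27 log2 (mean 1.31 ± 0.05, SD, n = 3).

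The subunits that only Pol II uses lay close together apart from POLR2B. POLR2D and POLR2G, which form the stalk where the RNA leaves the enzyme, had 10.11, 10.01 and 10.12 log2 and 9.57, 9.59 and 9.46 log2. POLR2C and POLR2J assemble with each other at the start of polymerase assembly. POLR2C had 9.61, 9.54 and 9.71 log2, and POLR2J had 9.20, 9.17 and 9.17 log2, the lowest level in Pol II. POLR2I, next to it at 9.11, 9.28 and 9.22 log2, overlapped with POLR2J. POLR2M, or Gdown1, a protein that binds Pol II and makes it depend on Mediator, had a mean of 9.78 ± 0.02 log2 (SD, n = 3) from probe sets at 9.86 and 9.71 log2.

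Pol I and Pol III give a comparison of like enzymes. The 7 subunits of Pol II alone (median 9.62 log2) were 0.34 ± 0.02 log2 higher than 8 subunits of Pol I (9.27 log2) and 0.84 ± 0.08 log2 higher than 9 subunits of Pol III (8.74 log2; SD, n = 3 arrays). POLR1C, which Pol I and Pol III share, was the highest of the Pol I list at 10.24 log2. Subunits that Pol I and Pol III share, POLR1C among them, were counted with Pol I only, so the lists are not built alike. The effect of this on the difference from Pol III was not tested. The difference from Pol I rested on POLR1H, which alone has several probe sets: over genes with 1 probe set it was 0.01 ± 0.07 log2.

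**Figure D2:**
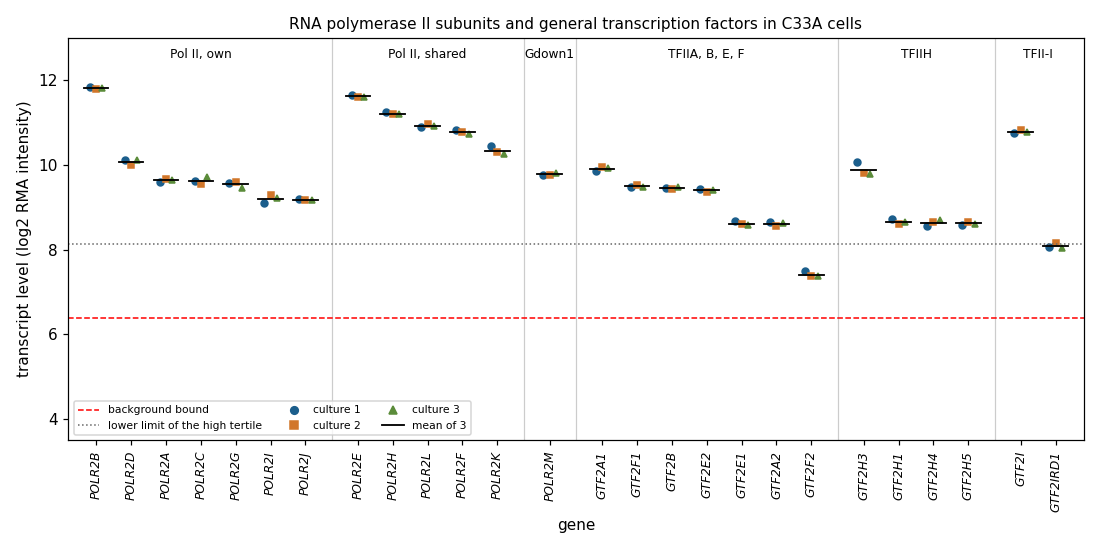
Transcript level (log2 RMA intensity) of each Pol II subunit and general transcription factor gene in culture 1 (circles), culture 2 (squares) and culture 3 (triangles), with the mean as a bar. The red dashed line is the background bound (6.38 log2 on average) and the grey dotted line the lower limit of the high tertile (8.14 log2). All genes shown lie above the bound, and POLR2B and POLR2E lie highest.

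The general transcription factors that act with TFIID were expressed at a somewhat lower level. The 7 genes of TFIIA, TFIIB, TFIIE and TFIIF had a median of 9.40 log2, and 6 of them were in the high tertile. GTF2A1, the precursor of the alpha and beta chains of TFIIA, led them with 9.86, 9.95 and 9.92 log2. GTF2A2, the gamma chain, had 8.66, 8.56 and 8.62 log2. GTF2B was at 9.46, 9.43 and 9.48 log2, and GTF2E2 of TFIIE at 9.44, 9.36 and 9.40 log2, above its partner GTF2E1 at 8.66, 8.60 and 8.58 log2. The subunits of TFIIF, a factor that escorts Pol II to the promoter, stood farthest apart. GTF2F1 (RAP74) had 9.48, 9.51 and 9.49 log2, and GTF2F2 (RAP30) had 7.48, 7.37 and 7.37 log2, in the medium tertile.

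TFIIH opens the promoter DNA and phosphorylates the C-terminal domain of POLR2A, and its core also acts in nucleotide excision repair. The 4 GTF2H genes had a median of 8.64 log2 and were all in the high tertile. Of these GTF2H1, GTF2H4 and GTF2H5 lay within the spread of each other, at 8.66 ± 0.06, 8.63 ± 0.07 and 8.62 ± 0.04 log2. GTF2H3 stood above them with 10.06, 9.80 and 9.79 log2, and culture 1 was the highest. Of the TFIIH subunits with other names, the helicases ERCC3 (10.05 log2) and ERCC2 (9.39) and the kinase CDK7 (9.11) were in the high tertile, whereas its cyclin CCNH (7.03) and the assembly factor MNAT1 (7.93) were in the medium, and all 5 were above the bound. GTF2H4 is read by 3 probe sets that hold identical values, so its level is the same from each of them.

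The TFII-I family shares the GTF2 name but not the role in the general machinery. GTF2I, a multifunctional transcription factor, had 10.75, 10.83 and 10.76 log2. GTF2IRD1, its relative from the same region of chromosome 7, had 8.07, 8.16 and 8.03 log2, just under the limit of the high tertile.

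TFIID had no subunit near background. Its 12 measured TAF genes had a median of 8.98 log2, and all were above the bound and in the high tertile. TAF10, a histone-fold subunit that TFIID shares with the coactivator SAGA, led with 10.84, 10.89 and 10.88 log2. TAF2, which contacts promoter DNA, had 9.83, 9.94 and 9.94 log2, and TAF6, the histone-fold partner of TAF9, had 9.67, 9.71 and 9.71 log2. The largest subunit, TAF1, which carries bromodomains that read acetylated histones, was the lowest with 8.08, 8.27 and 8.14 log2, at the limit of the high tertile. TAF3, whose PHD finger reads methylated histone H3, was next at 8.34, 8.41 and 8.39 log2 and did not overlap with TAF1.

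The other TFIID genes lay between these. TAF11 and TAF13, which pair through their histone folds, had 8.54 ± 0.05 and 9.06 ± 0.10 log2. TAF4 and TAF12, another such pair, had 9.05 ± 0.02 and 8.92 ± 0.03 log2. TAF5 (8.72 ± 0.06 log2) and TAF8 (8.71 ± 0.05 log2) overlapped, and TAF7, which restrains TAF1, had 9.17 ± 0.08 log2 (SD, n = 3 for each). TBP itself was at 9.56 ± 0.04 log2 and BTAF1, which removes TBP from DNA, at 9.71 ± 0.06 log2, while the oocyte paralog TBPL2 was at 3.46 ± 0.12 log2, below the bound.

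The paralogs that can take the place of a TFIID subunit were much lower, with a median of 5.97 log2 over 4 genes. TAF7L, the testis paralog of TAF7, had 4.26, 4.14 and 4.30 log2, against 9.23, 9.19 and 9.08 log2 for TAF7, and it was the lowest of all members (adjusted p = 1.5e-16 for a level below the bound, limma). TAF1L, a retrocopy of TAF1 known from male germ cells, had 5.34, 5.39 and 5.47 log2, against 8.08, 8.27 and 8.14 log2 for TAF1 (adjusted p = 5.5e-11). This call was lost when the keratin-associated proteins were left out of the silent families (difference from the bound -0.07 log2, adjusted p = 0.48, limma). TAF4B, the ovary and testis paralog of TAF4, had 6.62, 6.48 and 6.54 log2, against 9.04, 9.08 and 9.04 log2 for TAF4. TAF4B was the member nearest above the bound, by 0.16 ± 0.07 log2 (SE; adjusted p = 0.030, limma), and this call was lost without culture 1 or without culture 2. TAF9B was the exception among the 4, at 9.35, 9.32 and 9.33 log2, well within the range of TFIID. The difference of the medians between variants and TFIID was -3.00 ± 0.05 log2 (SD, n = 3 arrays), and TAF9B has several probe sets, so that over genes with 1 probe set, which leave it out, the difference was -3.57 log2.

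The TAF name also covers subunits of other complexes. TAF5L and TAF6L, which stand in SAGA where TFIID has TAF5 and TAF6, had 8.76, 8.61 and 8.72 log2 and 8.85, 8.75 and 8.65 log2. TAF5L overlapped with TAF5 (8.67, 8.71 and 8.78 log2), whereas TAF6L was lower on each array than TAF6. The SL1 subunits, which place Pol I at the ribosomal RNA genes, ranged over TAF1D at 9.38, 9.51 and 9.54 log2, TAF1C at 8.49 ± 0.06, TAF1B at 7.85 ± 0.12 and TAF1A at 7.48, 7.44 and 7.55 log2. TAF15, an RNA-binding protein, had 11.64, 11.71 and 11.62 log2, at the level of POLR2E.

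**Figure D3:**
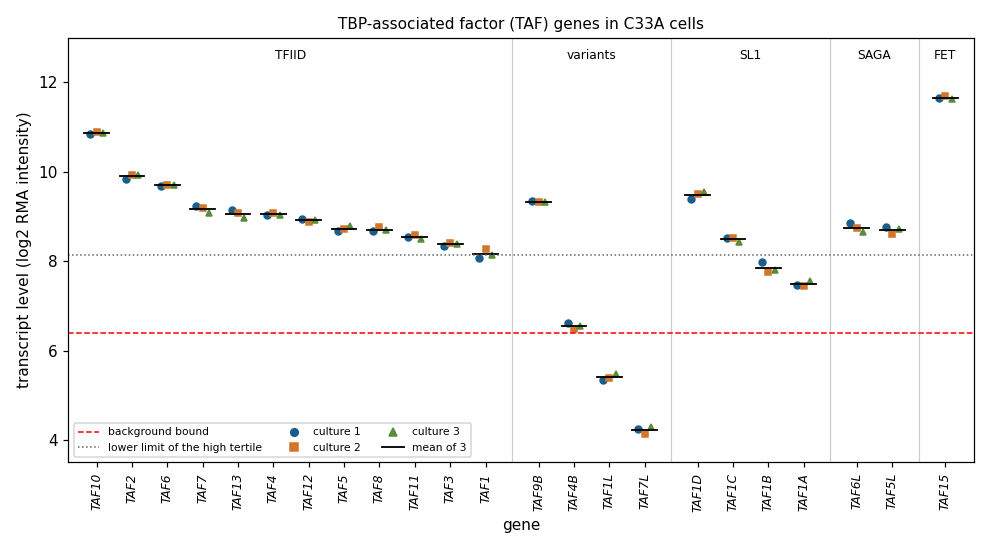
Transcript level (log2 RMA intensity) of each TAF gene in the 3 cultures (symbols) with the mean as a bar, grouped by complex. The 12 TFIID genes lie between 8.16 and 10.87 log2, above the grey dotted limit of the high tertile (8.14 log2), and TAF1L and TAF7L lie below the red dashed background bound (6.38 log2 on average).

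Mediator covered the widest range among the complexes with more than 4 genes. Its 24 core genes had a median of 8.56 log2, from 6.10 to 10.33 log2. Of these 23 were above the bound, and 15 were in the high and 9 in the medium tertile. MED14, the scaffold that joins head, middle and tail, was the highest with 10.34, 10.34 and 10.32 log2, and its SD of 0.01 log2 was the smallest of all members.

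In the head, which contacts Pol II, the median of 6 genes was 8.49 log2. MED17, around which the head is built, had 9.59, 9.51 and 9.56 log2, and MED20 had 9.42, 9.52 and 9.30 log2. MED18, which pairs with MED20, had 7.70, 7.53 and 7.37 log2, the lowest of the head and the most variable of all members (SD 0.16 log2). MED8 (8.66 log2), MED22 (8.33) and MED11 (7.96) lay between them.

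The middle module, which transmits contacts between head and tail, had a median of 7.95 log2 over 9 genes. MED1, the subunit that nuclear receptors bind, stood out with 10.19, 10.26 and 10.24 log2. MED10 followed with 8.96, 8.86 and 9.09 log2. MED21 and MED31 overlapped at 8.46 ± 0.03 and 8.45 ± 0.04 log2. The signal of MED9 lay just above that of MED7, with 7.95 ± 0.02 and 7.89 ± 0.02 log2 and no overlap. Overlap here is between cultures and does not cover differences in signal between probe sets. MED4 had 7.75 log2, and MED26, which brings elongation factors to Pol II, 7.28, 7.22 and 7.21 log2. MED19 was the lowest of the module with 6.85, 6.70 and 6.78 log2, above the bound by 0.39 ± 0.07 log2 (SE).

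The tail, where many activators dock, had the highest median of the modules with several genes, 9.40 log2 over 4 genes, all in the high tertile. MED24 (9.79 ± 0.05 log2) and MED16 (9.75 ± 0.02) overlapped. MED15, a target of SREBP and SMAD proteins, had 9.02, 9.12 and 9.01 log2, and MED23, which binds ELK1 and the adenoviral E1A protein, had 8.84, 8.91 and 8.71 log2.

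MED27 to MED30, subunits that lie where head and tail meet, split into a high and a low pair. MED28 (9.22, 9.22 and 9.12 log2) and MED29 (8.73, 8.71 and 8.63 log2) were in the high tertile. MED27 had 6.67, 6.69 and 6.88 log2, and MED30 had 6.001, 6.24 and 6.05 log2. MED30 was the only Mediator gene below the bound, by 0.29 log2 (difference -0.29 ± 0.08, SE; adjusted p = 0.0014, limma), and it was above the bound when the keratin-associated proteins were left out of the silent families or the 90th percentile was taken. A probe set that names MED27 together with its pseudogene CRSP8P, left out of these values, had 9.45, 9.43 and 9.44 log2, so the level of MED27 depends on which probe set is read.

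The kinase module binds Mediator reversibly and holds CDK8 or CDK19 with cyclin C. Its 4 members had a median of 8.86 log2. MED13, which links the module to the core, had 10.02, 10.20 and 10.07 log2, and its paralog MED13L 8.998, 9.16 and 8.99 log2. MED12, the activator of the kinase, had 8.56, 8.76 and 8.67 log2, and MED12L 7.18, 7.33 and 7.38 log2. In each pair the paralog was the lower on every array. Culture 2 was the highest for MED12, MED13 and MED13L. CCNC, which encodes cyclin C, was at 9.94 ± 0.04 log2 and CDK19 at 8.20 ± 0.03 log2, so both were in the high tertile (SD, n = 3).

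**Figure D4:**
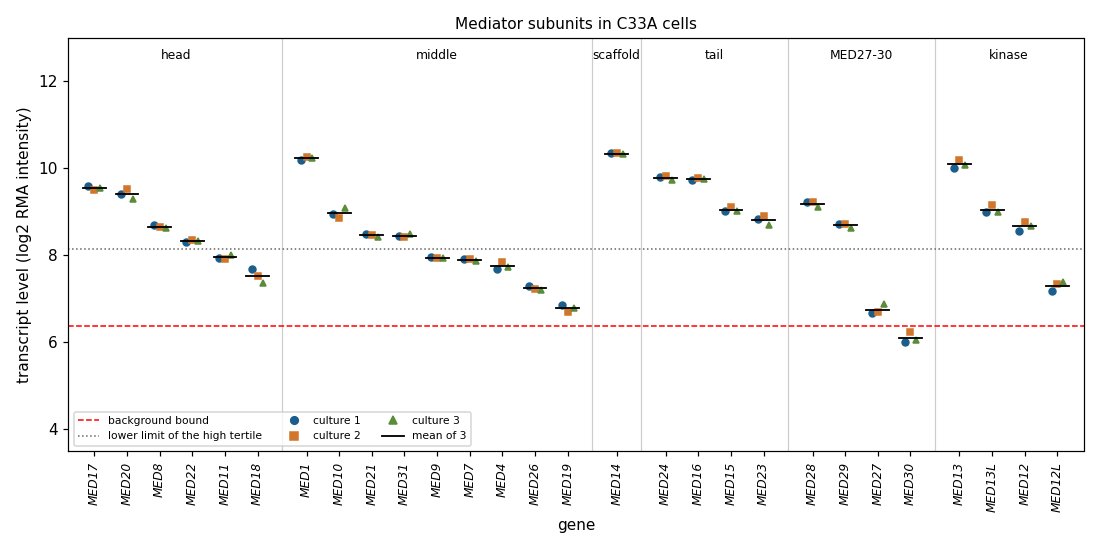
Transcript level (log2 RMA intensity) of each Mediator gene in the 3 cultures (symbols) with the mean as a bar, by module. MED14, MED1 and MED13 lie highest, at 10.33, 10.23 and 10.10 log2, and MED30, at 6.10 log2, is the only gene under the red dashed background bound (6.38 log2 on average).

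The complexes were then compared through the median of their genes on each array. TFIID minus Pol II was -1.29, -1.18 and -1.24 log2 on the 3 arrays (mean -1.24 ± 0.05, SD, n = 3), TFIIH differed from Pol II by -1.55 ± 0.06 log2, and the Mediator core by -1.64 ± 0.04 log2. These gaps rested in part on the shared subunits. Without those 5 genes, an alternative chosen after seeing the data, the differences from Pol II were -0.64 ± 0.04 log2 for TFIID, -0.95 ± 0.01 log2 for TFIIH and -1.04 ± 0.03 log2 for the Mediator core. The kinase module lay 0.29 ± 0.11 log2 above the Mediator core, with 0.19, 0.41 and 0.27 log2 on the 3 arrays. Each of the 12 differences of medians that were computed over all probe sets had the same sign on all 3 arrays, and an exact sign-flip permutation test over the arrays (two-sided) gave p = 0.25 for each, before and after Benjamini-Hochberg adjustment, the smallest p that 3 arrays allow. The difference of Pol II from Pol I over genes with 1 probe set did not keep 1 sign on the arrays (exact p = 1). The test covers the spread between cultures and not the differences in signal between probe sets.

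**Figure D5:**
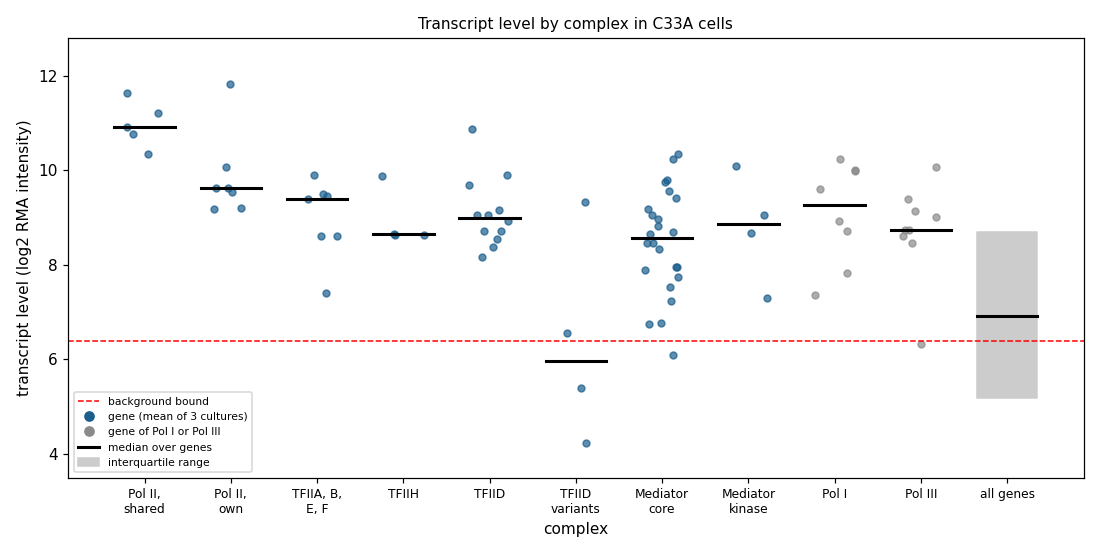
Mean level of each gene over the 3 cultures (points, log2 RMA intensity) by complex, with the median of the complex as a bar, and the median and interquartile range of all genes at the right (6.91, from 5.18 to 8.68 log2). Medians run from 10.92 log2 in the shared Pol II subunits over 8.98 log2 in TFIID to 8.56 log2 in the Mediator core and 5.97 log2 in the TFIID variants.

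Factors that act on Pol II after initiation were measured for comparison, and 8 of 8 were above the bound and in the high tertile. NELFCD, a subunit of the negative elongation factor that pauses Pol II near the promoter, was at 12.12 ± 0.04 log2, above every member. CDK9, the kinase that releases the paused enzyme, was at 10.25 ± 0.01 log2 and its cyclins CCNT1 and CCNT2 at 9.54 ± 0.01 and 8.30 ± 0.12 log2. SUPT5H and SUPT4H1, the subunits of the elongation factor DSIF, were at the same level, 9.17 ± 0.01 and 9.15 ± 0.04 log2 (SD, n = 3 for each).

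The cultures differed little in these genes. The highest of the 3 values was in culture 1 for 30 members, in culture 2 for 31 and in culture 3 for 16. Over all members the median deviation from the mean of a gene was 0.00, 0.01 and -0.01 log2 in the 3 cultures. Because RMA gives the arrays 1 common distribution, a median deviation near 0 is partly set by the processing. The SD was above 0.1 log2 in 10 members, and it was largest in MED18 (0.16), GTF2H3 (0.16), MED30 (0.13), TAF1B (0.12) and MED10 (0.12). Neither this count nor that of the highest culture was taken over all genes, so both describe the members only. In MED18, GTF2H3 and TAF1B culture 1 had the highest value, in MED30 culture 2 and in MED10 culture 3.

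The study that made these arrays asked which promoters CHD8 occupies. On its list of CHD8 target genes stood 10 of the 77 members (12.99%), against 9.64% of all genes and 21.1% of the genes in the high tertile. They were POLR2H, POLR2K, GTF2B, GTF2E2, TAF11, TAF1D, MED7, MED31, MED12L and MED13L. Of these 8 (80%) were in the high tertile, against 77.6% of the members off the list and 73.0% of all measured genes on it. Members on the list had a median level of 9.22 log2 and members off the list 8.92 log2. Of the 6 on the list whose windows are printed, all were above the bound, from MED7 at 7.89 ± 0.02 log2 to POLR2H at 11.21 ± 0.03 log2 (SD, n = 3). Absence from the list does not show that CHD8 was absent from a promoter.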

How the data were processed

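RMA and then oneChannelGUI were applied by the authors to the scanned arrays (no versions are stated), and each deposited value is a log2 intensity. With 3 arrays, precision is limited by their number. By the annotation of the platform, 19460 probe sets have 1 gene symbol and were used, 1754 have several and 12083 have none. A gene's level is the mean of its probe sets, of which 788 genes have several. The members and gene lists were chosen with earlier results of these data known. The named genes are all members, with values for the highest and lowest of each complex, paralogs, genes not above the bound, the 5 of largest SD and the CHD8 targets. Each level minus the bound of its array was tested with limma 3.58.1 in R 4.3.3 (lmFit and eBayes, two-sided, Benjamini-Hochberg over all genes, threshold 0.05), a fit checked on simulated data. The simulation put 18195 of 18395 genes at the bound, with SDs unrelated to level, so its setting differs from the data. It called 2 of those genes, 61 of 100 genes at 0.5 log2 above the bound and 91 of 100 at 1 log2. Medians of complexes were compared per array with exact sign-flip permutation tests. Comparisons of shared with other Pol II subunits, of TFIID variants, and of Pol I and Pol III, and all motif searches, were chosen after seeing the data. Promoters come from RefSeq (GRCh38.p14). Genes without a probe set of their own, among them MED6, MED25, TAF9, GTF2H2, GTF2A1L and CDK8, are not analysed here. The cultures are independent, and the sign-flip p-values measure the spread between them. In limma the spread of a gene is moderated by the spread shared over all genes. Its SE and p-values therefore follow a gene's own SD only weakly. The SE was 0.068 log2 for MED14 (SD 0.01 log2) and 0.077 log2 for MED18 (SD 0.16 log2). Python 3.11.15, NumPy 2.4.6, pandas 2.3.3 and matplotlib 3.10.9 were used.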

Additional observations from a re-analysis of the deposited data

Results flagged for a closer look

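Probe sets that name a member together with another gene were left out of the report, and 12 groups of them, by the genes they name, lay above the background bound on every array. A signal outside the measurements used is what marks them here, and from such a probe set the genes it names cannot be told apart. TAF9 with AK6, which lies at the same locus on chromosome 5, had a mean of 8.57 log2 over 2 probe sets. The GTF2H2 copies, which encode p44 of TFIIH, had 9.64 log2 over 5 probe sets that name all of them. MED27 with CRSP8P had 9.44 log2, against 6.74 log2 on the probe set that names MED27 alone. Of the POLR2J copies, POLR2J with POLR2J2, POLR2J3 and POLR2J4 had 9.41 log2 over 2 probe sets, the same copies with UPK3BL1 had 9.45 log2, those without POLR2J had 10.10 log2 with UPK3BL1, and POLR2J4 with the RASA4 genes had 7.06 log2 over 2 probe sets. GTF2IRD2 with GTF2IRD2B had 6.76 log2 over 2 probe sets. TAF1D hosts small nucleolar RNAs in its introns, and the probe sets that name it with one of them had 7.13 log2 (SNORA1), 8.68 log2 (SNORA8), 9.59 log2 (SNORD5) and 7.22 log2 (SNORD6). Their SD over the 3 arrays was 0.28, 0.32, 0.37 and 0.16 log2, against 0.08 log2 for the TAF1D probe set used, with culture 1 the lowest in each. The 2 probe sets of SNORA40 with TAF1D (4.33 and 8.58 log2) were not both above the bound, and the probe set of GTF2A1L with STON1 (5.39 log2) was below it.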

How the results depend on the processing

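Of the 11 summary results, 10 kept their direction under every alternative run. The exception was the difference between the unshared Pol II subunits and Pol I, 0.34 log2, which was 0.01 ± 0.07 log2 over genes with 1 probe set (SD, n = 3 arrays; exact p = 1), with no common sign. Each count stayed within 1.5 times its value. Leaving out 1 culture at a time gave 73 to 74 members above the bound and 59 to 60 in the high tertile. The number above the bound was 61 of 77 with the bound at the 99th percentile of the silent families (35.2% of all genes), 75 with the 90th (64.8%) and 75 without the keratin-associated proteins (68.1%), so the 13 further genes that were not above the highest bound, 9 of them Mediator genes, depend on where the bound is set. The members exceeded all genes by 1.999 to 2.04 log2 in all alternatives. The Mediator core differed from Pol II by -1.66 to -1.61 log2, TFIID by -1.27 to -1.21 and TFIIH by -1.57 to -1.51 when 1 culture was left out, and the kinase module from the core by 0.23 to 0.34 log2. Centring each array on its median could change no result, because a constant per array cancels in each comparison. Updating the gene symbols gave the same 77 members, so it changed no count. Pol II, TFIID and Mediator genes have 1 probe set each, so taking other probe sets could not move the gaps between them. For these results such alternatives say nothing on whether a direction is kept. No paired analysis was possible because all samples belong to 1 group. Levels near the bound, such as those of TAF4B, MED27, MED19 and MED30, are the least certain, and a transcript level gives no amount of protein or of assembled complex.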
